A study of Mus musculus with 12 samples.

Results

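*Slc7a11*, the gene of the light chain of the cystine/glutamate antiporter, and *Atf5*, the gene of a stress-inducible transcription factor, were followed in the baseline RNAseq data of sorted airway macrophages (AMs). They are 2 of the 1999 rows of the count table that could be paired with a gene name, out of 19161 rows in all, and both passed the filter on low counts. Both genes were chosen by their values in the comparison of *Scnn1b*-Tg with WT AMs, so their differences between genotypes are given here as a description and are not evidence of an effect. Names exist here only for genes with a small p-value in that same comparison. The counts of pathway genes below therefore carry this selection, and 17162 rows are not analysed by name.

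*Scnn1b*-Tg mice carry a transgene for the β-subunit of the epithelial sodium channel under the club cell secretory protein promoter, a promoter of the airway epithelium, and they develop mucus obstruction of the airways. AMs were sorted as live CD45+ Siglec-F+ CD11c+ cells from the lungs of 6-week-old female mice on a C57BL/6 background, and WT littermates served as controls. The baseline set has 12 libraries, 6 of each genotype. In each of batches 1, 2 and 3 there is 1 library of either genotype (replicates 1 to 3), and in batch 4 there are 3 of either (replicates 4 to 6). In batch 4 the titles place the WT and the *Scnn1b*-Tg libraries on different flow cells, so that flow cell and genotype cannot be told apart there.

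The cystine/glutamate antiporter, also called xCT, imports cystine in exchange for glutamate, and the imported cystine is reduced to cysteine for the synthesis of glutathione. Its light chain SLC7A11 needs the heavy chain SLC3A2 (CD98) to reach the plasma membrane, and *Slc7a11* is a known target of both ATF4, the main transcription factor of the integrated stress response, and NRF2, the main transcription factor of the antioxidant response. ATF5 belongs to the same family as ATF4. Its mRNA is held back from translation by upstream open reading frames until eIF2α is phosphorylated, it is also a transcriptional target of the integrated stress response, and it is linked to the mitochondrial unfolded protein response. In the classical form of this response, lack of amino acids raises both genes.

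*Slc7a11* (ENSMUSG00000027737) lies on the minus strand of chromosome 3 at positions 49892526 to 50443614 of GRCm38 (mm10), and *Atf5* (ENSMUSG00000038539) on the minus strand of chromosome 7 at 44812256 to 44816658, in the GENCODE annotation. Their promoters are shown because both genes are known to respond to the integrated stress response and yet had opposite differences here. The sequences are the 250 bases before each RefSeq transcription start on GRCm38.p6, with matches to the C/EBP-ATF response element (TGATGNAA, searched on both strands), the site that ATF4 dimers bind, in capitals. The first is chr3:50443614-50443863 and the second chr7:44816659-44816908, both read on the minus strand.
Slc7a11: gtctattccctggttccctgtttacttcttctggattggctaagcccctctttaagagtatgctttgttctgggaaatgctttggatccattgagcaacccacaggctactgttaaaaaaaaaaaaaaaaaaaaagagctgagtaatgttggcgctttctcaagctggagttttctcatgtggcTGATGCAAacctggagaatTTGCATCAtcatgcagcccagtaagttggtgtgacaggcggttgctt
Atf5: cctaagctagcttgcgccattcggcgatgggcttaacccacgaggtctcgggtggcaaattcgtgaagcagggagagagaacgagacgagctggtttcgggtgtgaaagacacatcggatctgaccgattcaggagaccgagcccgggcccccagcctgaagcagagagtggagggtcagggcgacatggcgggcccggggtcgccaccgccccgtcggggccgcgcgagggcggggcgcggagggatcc

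The *Slc7a11* promoter held 2 matches in opposite orientation, TGATGCAA from 66 to 59 bases before the start and TTGCATCA from 47 to 40 bases before it. Of 32817 promoters of this length, 3.45% held at least 1 match and 13 promoters, or 0.0396%, held 2 or more. Neither the *Atf5* promoter shown nor the second RefSeq start of *Atf5* (chr7:44815659-44815908) held a match, and the promoters also differed in base composition, with 43.2% G and C for *Slc7a11* against 66.8% and 56% for the *Atf5* starts. The antioxidant response element (TGACNNNGC, on both strands), which NRF2 binds, matched in neither gene's promoter and in 10.2% of all promoters. Among the 1451 named genes with a promoter in the table, 38 held the C/EBP-ATF element (2.62%). Of the 37 other than *Slc7a11*, 19 were estimated higher and 18 lower in *Scnn1b*-Tg, and 0 passed the thresholds for a call given below. The antioxidant element was held by 226 of the 1451 (15.6%), of which 127 were estimated higher and 99 lower, and 6 were called higher and 1 lower. Over all 1999 named rows 55.7% were estimated higher and 3% were called, so these shares are near the background. A match of letters is not a binding site, and binding was not measured in these libraries.

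*Slc7a11* was higher in *Scnn1b*-Tg than in WT AMs in every batch. Levels are given as CPM, counts brought to a common library size with TMM factors, which correct for differences in library composition. In batches 1, 2 and 3 the *Scnn1b*-Tg libraries had *Slc7a11* levels of 31.2, 31.3 and 15.6 CPM, and the WT libraries of the same batches 12.2, 10.8 and 3.54 CPM. In batch 4 the *Scnn1b*-Tg libraries had 44.9, 53.1 and 40.6 CPM and the WT libraries 25, 25.2 and 37.5 CPM. The lowest level of either genotype was in batch 3 and the highest in batch 4, so that the 6 and 6 libraries overlapped as wholes, with 36.1 ± 13.1 CPM against 19 ± 12.4 CPM (mean ± SD, n = 6 each). Within batch 4 the genotypes did not overlap, and in batches 1 to 3, with 1 library of either genotype each, overlap cannot be read. Of all rows tested, 3.62% differed in one direction in each of batches 1 to 3 and did not overlap within batch 4. The *Scnn1b*-Tg to WT ratio was 2.5 in batch 1, 2.81 in batch 2, 3.97 in batch 3 and 1.59 between the batch 4 means on the log2 scale.

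*Atf5* went the other way in every batch. Its levels in *Scnn1b*-Tg libraries were 15, 15.4 and 23.8 CPM in batches 1, 2 and 3, against 20.4, 20.3 and 28 CPM in WT. In batch 4 they were 24, 23 and 25.5 CPM against 30.5, 39.2 and 32.9 CPM, again with no overlap between genotypes within the batch. The group means were 21.1 ± 4.66 CPM and 28.6 ± 7.34 CPM (mean ± SD, n = 6 each). The *Scnn1b*-Tg to WT ratio lay between 0.714 in batch 4 and 0.853 in batch 3, a narrower spread between batches than that of *Slc7a11*.

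**Figure D1:**
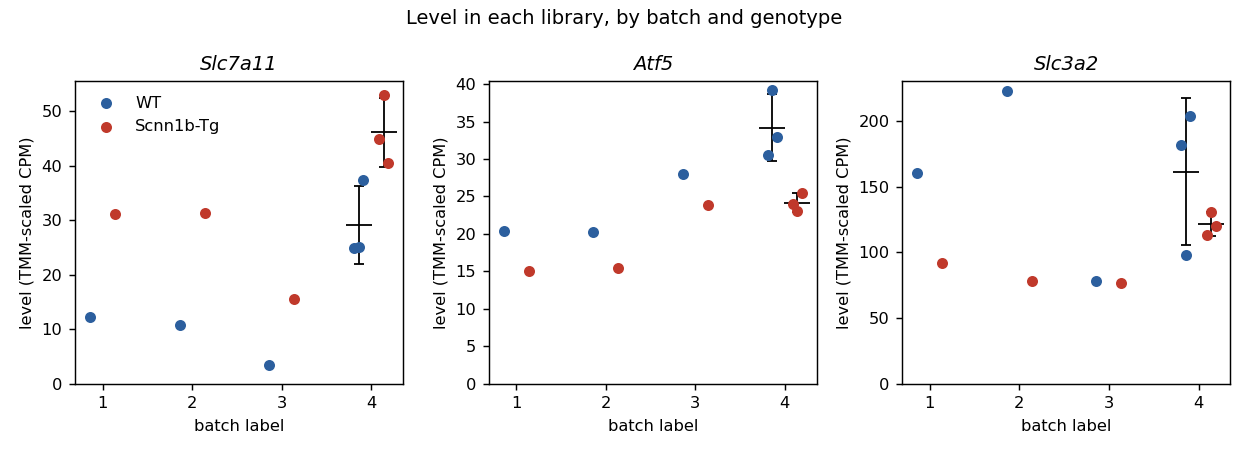
Levels of *Slc7a11*, *Atf5* and *Slc3a2* in each of the 12 libraries (y axis, TMM-scaled CPM) by batch label (x axis), with WT in blue and *Scnn1b*-Tg in red; black bars in batch 4 are means ± SD of 3 libraries. *Slc7a11* is higher and *Atf5* lower in *Scnn1b*-Tg in each batch, and *Slc3a2* ranges from 78.1 to 223 CPM among WT libraries.

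In the edgeR quasi-likelihood fit over all 16972 rows that passed the filter, with batch as a block, *Slc7a11* had a log2 fold change of 1.16 (SE 0.22, edgeR adjusted p = 0.0867), a 2.23-fold higher level in *Scnn1b*-Tg AMs. *Atf5* had a log2 fold change of -0.43 (SE 0.09, edgeR adjusted p = 0.133), a level 0.742 times that of WT. At the thresholds of the study (adjusted p below 0.1, log2 fold change beyond 0.5 in either direction), 1 of the 2 genes was called, *Slc7a11*, while 60 rows (0.354%) were called over the whole table. Of these, 50 (0.295%) were higher in *Scnn1b*-Tg AMs, *Slc7a11* among them, and 10 (0.0589%) were lower, *Atf5* not among them. Both genes belonged to the 615 rows (3.62%) that differed in one direction in each of batches 1 to 3 and did not overlap within batch 4. Because this contrast chose the genes, nothing is read from these counts. *Slc7a11* lay just inside the adjusted p threshold, at which the nearest rows past the fold threshold had 0.0951 inside and 0.1 outside. Its call was lost when any of 10 single libraries was left out, with adjusted p-values up to 0.247 (without *Scnn1b*-Tg 2), and was kept without WT 6 (0.0564) and without *Scnn1b*-Tg 6 (0.0956). *Atf5* missed the fold threshold as well as the adjusted p threshold.

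The genotype differences of the genes thus had opposite signs. The ratio of *Slc7a11* to *Atf5* CPM within a library, which needs no scaling between libraries, was 2.09, 2.03 and 0.653 in the *Scnn1b*-Tg libraries of batches 1, 2 and 3 and 0.597, 0.533 and 0.127 in the WT libraries. In batch 4 it was 1.87, 2.3 and 1.59 in *Scnn1b*-Tg and 0.818, 0.644 and 1.14 in WT. The ratio was higher in *Scnn1b*-Tg than in WT in each batch, and the lowest *Scnn1b*-Tg value, in batch 3, lay within the WT range. With batch in a linear model, the log2 ratio was 1.55 higher in *Scnn1b*-Tg libraries (SE 0.22, 95% interval 1.04 to 2.07 on 7 degrees of freedom), a 2.93-fold difference (2.05 to 4.2). This interval describes 2 genes picked for their direction and is not a test. Per kilobase of annotated exon, *Atf5* was the more abundant transcript in both genotypes, with 10.6 ± 2.34 CPM per kb against 2.59 ± 0.938 for *Slc7a11* in *Scnn1b*-Tg and 14.3 ± 3.68 against 1.37 ± 0.89 in WT (mean ± SD, n = 6), on annotated exon lengths of 1.99 and 13.9 kb.

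**Figure D2:**
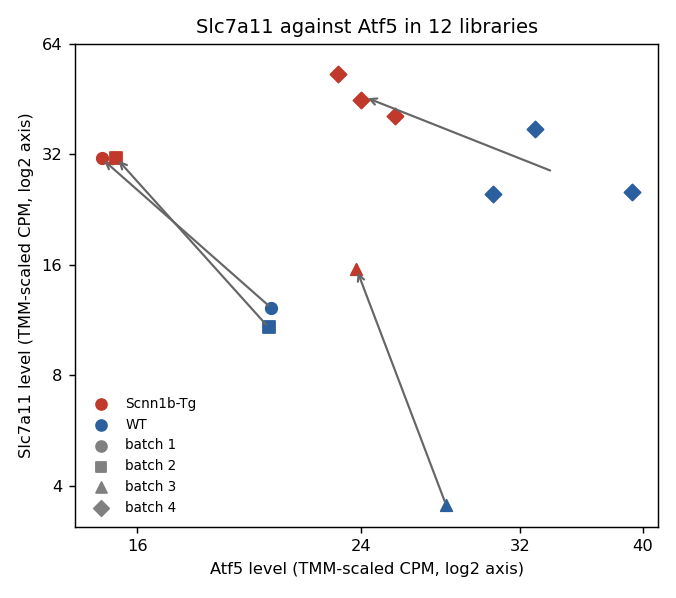
*Slc7a11* level (y axis) against *Atf5* level (x axis) in the 12 libraries, both in TMM-scaled CPM on log2 axes, with colour for genotype and marker shape for batch; arrows run from the WT to the *Scnn1b*-Tg mean of each batch, taken on the log2 scale. All 4 arrows point up and to the left, and batch 3 starts from the lowest *Slc7a11* level, 3.54 CPM.

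The libraries also allowed a look at differences that the genotype contrast did not use. Between batches, batch 3 had less *Slc7a11* and more *Atf5* than batches 1 and 2 in both genotypes, and batch 4 had the highest *Slc7a11* of either genotype. *Atf5* in batch 4 was above the batch 3 level in WT and around it in *Scnn1b*-Tg. Among the 6 libraries of batch 4, after the genotype means were taken out, the log2 levels of the genes correlated with Pearson's r = -0.34 (exact permutation test over 36 pairings within genotype, two-sided p = 0.722) and Spearman's rho = -0.09 (exact permutation p = 0.917). Adjusted over these 2 correlations, both p-values were 0.917, and the smallest that 36 pairings allow is 0.0278. Without the 2 libraries farthest from the median of *Slc7a11*, r was -0.15. Over all 12 libraries, with batch and genotype taken out, r was 0.25 and rho 0.34. The value in batch 4 depended on single libraries, since r was -0.99 without WT 4 and 0.06 without WT 5, so that no relation between the genes among mice of the same genotype could be established in either direction.

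The genotype effect on *Slc7a11* was smaller in batch 4 than in batches 1 to 3, with log2 fold changes of 0.66 (SE 0.20) and 1.67 (SE 0.22). The difference of -1.01 (SE 0.30) had an unadjusted p of 0.00826 and an edgeR adjusted p of 0.627. For *Atf5* the log2 fold changes were -0.50 (SE 0.13) in batch 4 and -0.36 (SE 0.15) in batches 1 to 3, a difference of -0.14 (SE 0.18, edgeR adjusted p = 0.943). Neither gene (0 of 2) passed an adjusted p of 0.1 in this test, which 19 rows (0.112%) did.

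*Slc3a2*, the heavy chain that carries SLC7A11 to the membrane, had a lower estimate in *Scnn1b*-Tg AMs, opposite to *Slc7a11*. Its levels in *Scnn1b*-Tg libraries 1 to 6 were 92, 78, 76.5, 113, 131 and 120 CPM, and in WT libraries 1 to 6 they were 160, 223, 78.1, 182, 98.3 and 204 CPM. WT libraries 3 and 5 fell within the *Scnn1b*-Tg range and the other WT libraries above it. The log2 fold change was -0.59 (SE 0.21, edgeR adjusted p = 0.469), so that the lower estimate did not pass the test, and its size changed from a ratio of 0.351 in batch 2 to 0.98 in batch 3. SLC3A2 also pairs with other light chains, among them SLC7A8, a transporter of neutral amino acids, whose *Slc7a8* estimate was 0.29 (SE 0.11, edgeR adjusted p = 0.501). The glutamate transporter gene *Slc1a3* had 4.71 ± 2.66 CPM in *Scnn1b*-Tg and 2.77 ± 1.86 CPM in WT (mean ± SD, n = 6 each, log2 fold change 0.83, SE 0.25, edgeR adjusted p = 0.37). *Slc1a2*, another glutamate transporter, was listed at 0 in 4 libraries and at most at 1.37 CPM. Of 21 listed amino acid transporter genes, 4 had a name and 0 were called.

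Of the 31 genes listed for the integrated stress response and ATF4 targets, 4 had a name and the remaining 27 are not analysed here. *Gdf15*, a stress-induced cytokine of the TGF-β superfamily, was called higher, with 11.2, 9.63 and 16.9 CPM in the *Scnn1b*-Tg libraries of batches 1 to 3 against 6.3, 5.4 and 15.1 CPM in WT, and 75, 85.5 and 93.1 CPM against 30.6, 29.7 and 25 CPM in batch 4. Its log2 fold change was 1.10 (SE 0.19, edgeR adjusted p = 0.0619), and it was called in 2 of 12 fits with 1 library left out. *Atf3*, a further ATF family gene, had a log2 fold change of 0.62 (SE 0.15, edgeR adjusted p = 0.194). *Gpt2*, the mitochondrial alanine aminotransferase, had 0.35 (SE 0.17, edgeR adjusted p = 0.615) and *Xpot*, a tRNA exporter, -0.19 (SE 0.07, edgeR adjusted p = 0.451). The sizes and directions thus differed among the 4 named genes of this list. Among 20 cytosolic tRNA synthetase genes, which ATF4 raises in many cells, 4 had a name and 0 were called. *Kars* (0.26) and *Mars* (0.22) had higher estimates of the log2 fold change, and *Eprs* (-0.17) and *Lars* (-0.21) lower ones. *Eif2b1*, a subunit of the exchange factor on which phosphorylated eIF2α acts, was the only 1 of 11 eIF2 pathway genes with a name, and its log2 fold change was 0.19 (SE 0.10, edgeR adjusted p = 0.636).

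The named genes of the NRF2 response and of glutathione metabolism had estimates in the direction of *Slc7a11*. Of 34 listed genes, 12 had a name, the estimates of all 12 were higher in *Scnn1b*-Tg, and 3 passed as called, each higher, where 3% of all named rows were called. The median log2 fold change of the 12 was 0.28, against 0.20 over all 1999 named rows, of which 1113 (55.7%) had a higher estimate, and 0.01 over all rows tested. *Hmox1*, the enzyme that breaks down heme, was called higher, with 404, 434 and 262 CPM against 250, 260 and 165 CPM in batches 1 to 3 and 140, 132 and 153 CPM against 113, 119 and 106 CPM in batch 4 (log2 fold change 0.52, SE 0.08, edgeR adjusted p = 0.04). The call of *Hmox1* held in 5 of 12 fits with 1 library left out. *Gstm1*, a glutathione transferase, was called higher (log2 fold change 0.59, SE 0.11, edgeR adjusted p = 0.0684), and its estimate was 0.59 both in batches 1 to 3 and in batch 4. *Gpx3*, a glutathione peroxidase, was called higher (0.83, SE 0.16, edgeR adjusted p = 0.0828), with 65.7 and 43.8 CPM in the batch 1 libraries and between 2.99 and 18.1 CPM in all others. *Gstm1* was called in 3 and *Gpx3* in 1 of the 12 fits with 1 library left out. *Gclm*, the modifier subunit of the enzyme that starts glutathione synthesis, had a log2 fold change of 0.20 (SE 0.09, edgeR adjusted p = 0.579), and *Txnrd1*, thioredoxin reductase, 0.24 (SE 0.06, edgeR adjusted p = 0.201). Of the 12 genes, 8 were higher in *Scnn1b*-Tg in each of batches 1 to 3 without overlap in batch 4, and 0 were lower in this sense. Over all named rows the share higher in this sense was 16.1% (321 of 1999). The 1999 include 886 rows with a lower estimate, which could not be counted here. Names also depend on the p-value of this same contrast, so nothing is read from these counts.

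ATF5 is linked to the mitochondrial unfolded protein response, of which 1 of 14 listed genes had a name. *Hspa9*, the mitochondrial HSP70 chaperone, had 217 ± 15.8 CPM in *Scnn1b*-Tg and 236 ± 8.41 CPM in WT (mean ± SD, n = 6 each, log2 fold change -0.12, SE 0.05, edgeR adjusted p = 0.571). For the unfolded protein response of the endoplasmic reticulum, 6 of 21 genes had a name and 0 were called. The estimates were higher for 5 of the 6, from 0.19 for *Calr* to 0.47 for *Sdf2l1* (SE 0.11, edgeR adjusted p = 0.205), and lower for *Edem1* (-0.11). Over all lists together, 32 of 152 genes had a name, 26 had a higher and 6 a lower estimate, and 4 were called higher and 0 lower. Among all 1999 named rows, to which these genes belong, 60 (3%) were called. The 4 calls among the pathway genes fell to 0 in 5 of the fits with 1 library left out, namely those without *Scnn1b*-Tg 1, *Scnn1b*-Tg 2, WT 1, WT 2 or WT 6.

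**Figure D3:**
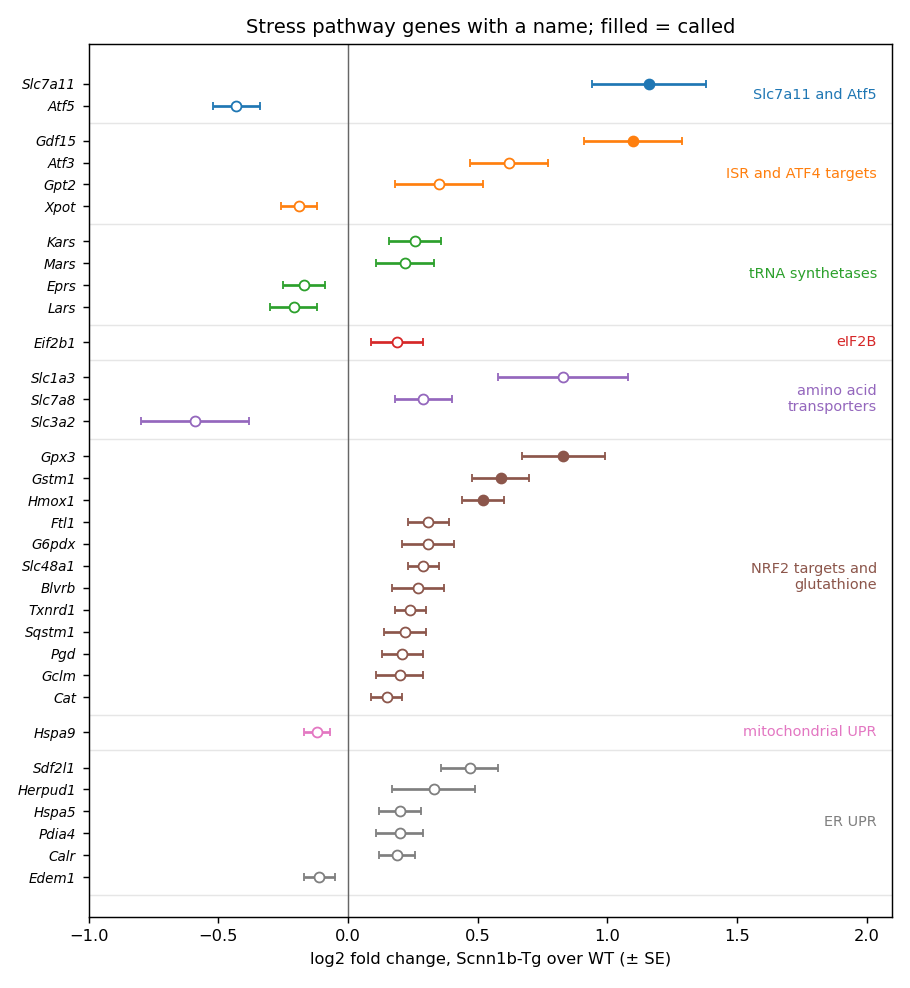
Log2 fold change of *Scnn1b*-Tg over WT (x axis, points, with bars for the SE of the edgeR fit) for *Slc7a11*, *Atf5* and the named genes of the stress pathway lists (y axis), grouped and coloured by list, with filled points for called genes; *Slc1a2* (0 in 4 libraries) is left out. *Slc7a11* (1.16) and *Gdf15* (1.10) have the highest estimates, *Atf5* (-0.43) and *Slc3a2* (-0.59) the lowest, and all 12 NRF2 and glutathione genes lie above 0.

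By the likeness of their batch-centred log2 levels over the 12 libraries, the named genes closest to *Slc7a11* were *Atp6v1c1*, a subunit of the vacuolar proton pump (r = 0.97), *Stard5*, a sterol carrier (0.95), *Slc30a4*, a zinc transporter (0.94), *Tmed9*, a protein of the early secretory pathway (0.94), and *Psap*, the precursor of the lysosomal saposins (0.93). Those closest to *Atf5* were *Svil*, an actin-binding protein (0.98), *Hnrnpu*, a nuclear RNA-binding protein (0.96), *Senp6*, a SUMO protease (0.96), *Mtss1*, a regulator of membrane curvature (0.96), and *Gm9790* (0.96). *Gm9790* was at 0.0622 to 0.438 CPM in batch 4, below the 0.5 CPM added before the log2, and *Slc30a4* was at 0 CPM in WT 3. The correlations of these genes thus rest in part on levels near the floor. No row without a name was as close as the fifth of either list among the 12120 rows compared. These correlations include the genotype difference, by which the named rows were selected. With genotype also taken out, they ranged from 0.67 to 0.87 for *Slc7a11* and from 0.70 to 0.92 for *Atf5*. On the same measure *Slc7a11* and *Atf5* correlated at -0.76, *Slc7a11* and *Slc3a2* at -0.53, and *Atf5* and *Slc3a2* at 0.44, and with genotype taken out these values were 0.25, 0.11 and -0.48.

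Marker lists were read beside these genes. The dissociation response list, genes that rise when tissue is digested and sorted, had 7 of 16 genes with a name, including *Atf3*, and 0 were called over all batches. Its log2 fold changes were -0.10 to 0.44 (median 0.04) in batches 1 to 3 and 0.67 to 2.30 (median 0.88) in batch 4, where *Fosb* was at 121, 118 and 134 CPM in *Scnn1b*-Tg and at 37.3, 26.1 and 29.8 CPM in WT. In the fit of batch 4 alone, which called 52 of 14015 rows (0.371%) and 43 of 1841 named rows (2.34%), 4 of the 7 were called, all higher: *Fosb* (edgeR adjusted p = 0.00907), *Zfp36* (0.0159), *Hspa8* (0.0197) and *Atf3* (0.0351). *Gdf15* (0.61 and 1.58) and *Atf3* (0.38 and 0.84) shared the larger difference in batch 4, and *Slc7a11* (1.67 and 0.66) did not. The part of this response, or of the flow cell, in the *Gdf15* and *Atf3* values was not tested. The adjusted p of the difference between batch groups was 0.478 for *Gdf15* and 0.804 for *Atf3* in the edgeR fit.

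**Figure D4:**
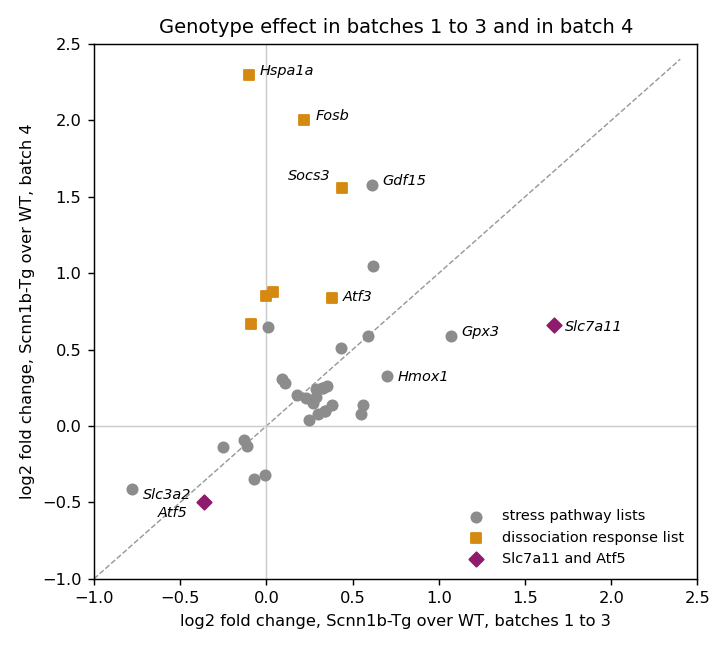
Log2 fold change of *Scnn1b*-Tg over WT in batches 1 to 3 (x axis) and in batch 4 (y axis) for the named stress pathway genes (grey; *Slc1a2* left out), the dissociation response genes (orange) and *Slc7a11* and *Atf5* (purple); the dashed line marks equal values. The dissociation genes lie between 0.67 and 2.30 in batch 4 and between -0.10 and 0.44 in batches 1 to 3, *Slc7a11* lies below the line and *Atf5* near it.

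Of 18 AM marker genes, 11 had a name, 5 with a higher and 6 with a lower estimate, and their summed level was 28331 to 68238 CPM in *Scnn1b*-Tg and 28207 to 40583 CPM in WT, most of it from *Chil3*. Of the 11, 3 were called, beside 3% of all named rows, namely *Fabp5* (log2 fold change 0.59, edgeR adjusted p = 0.0583) and *Cd68* (0.52, edgeR adjusted p = 0.04) higher and *Krt79* lower (-0.65, edgeR adjusted p = 0.00886). *Krt79* kept its call in 12 of 12 fits with 1 library left out, *Cd68* in 7 and *Fabp5* in 2. The sorting marker *Siglecf* was lower in *Scnn1b*-Tg in each batch, with 395 to 473 CPM against 528 to 585 CPM in batch 4 (log2 fold change over all batches -0.31, SE 0.06, edgeR adjusted p = 0.0895), a change within the fold threshold. For dendritic cells 3 of 7 markers had a name, with sums of 0.8 to 85.9 CPM in *Scnn1b*-Tg, the highest in *Scnn1b*-Tg 1, and 0.298 to 7.59 CPM in WT, and all 3 estimates were higher. The study stained CD209A and MGL2 as surface markers of alternative macrophage polarization, so their genes are not read here as markers of dendritic cells alone. *Cd209a* was at 35.8, 2.07, 1.13, 0.8, 1.43 and 1.39 CPM in *Scnn1b*-Tg libraries 1 to 6 and at 2.73, 0.388, 0.489, 0.15, 0 and 0 CPM in WT, higher in each batch, as *Slc7a11* was, with no overlap in batch 4. Its adjusted p was 0.139 with edgeR, 2.0e-05 with DESeq2 and 0.0177 with limma-voom. *Mgl2* passed both thresholds with DESeq2 (adjusted p = 0.0725) and not with edgeR (0.461) or limma-voom (0.147), and *Flt3* passed with none of them. For monocytes (1 of 6, *Vcan*) the range was 0.0507 to 1.12 CPM in *Scnn1b*-Tg and 0.244 to 3.23 CPM in WT. *Vcan* was lower in *Scnn1b*-Tg in each batch, with no overlap in batch 4 (log2 fold change -1.61, SE 0.50, edgeR adjusted p = 0.392). It passed both thresholds with DESeq2 (adjusted p = 0.0431) and not with limma-voom (0.198). The range was 39.3 to 71.6 and 31.6 to 71.9 CPM for neutrophils (3 of 8) and 0 to 8.22 and 0.25 to 19.6 CPM for T and NK cells (2 of 8). For epithelium (1 of 8, *Cdh1*) it was 99.1 to 162 and 86.9 to 125 CPM. Where 1 marker has a name, its level cannot tell other cells apart from RNA of the AMs themselves. Within the neutrophil list the estimates differed in direction. *Csf3r* had lower means in *Scnn1b*-Tg in each batch (log2 fold change -0.35, SE 0.09, edgeR adjusted p = 0.29), and *Cxcr2* higher ones in each batch (1.02, SE 0.30, edgeR adjusted p = 0.342), neither of which passed the edgeR test. With DESeq2 *Cxcr2* passed both thresholds (adjusted p = 0.0377), while *Csf3r* (0.0409) stayed within the fold threshold. Neither passed with limma-voom (adjusted p = 0.235 for *Cxcr2* and 0.18 for *Csf3r*). *Mmp9* was at 0.187 to 1.95 CPM in *Scnn1b*-Tg and at 0 to 0.292 CPM in WT, with 0 in the WT libraries of batches 3 and 4 (edgeR adjusted p = 0.249). At these low levels it was higher in *Scnn1b*-Tg in each batch, with no overlap in batch 4. It passed both thresholds with DESeq2 (adjusted p = 0.00121) and with limma-voom (0.0791). For eosinophils and B cells 0 of 4 markers each had a name. The part of these markers and other cells in the values of *Slc7a11* and *Atf5* was not tested. In bulk libraries a lower level from fewer cells that express a gene cannot be told apart from less RNA per cell.

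*Atf5* shares 82 exon bases (4.11% of its exons) with each of its neighbours *Nup62* and *Il4i1* on the opposite strand, and the counting did not use strand, so that counts there may come from either gene. *Slc7a11* shares 0 exon bases with the 5 small genes annotated within its span. Totals per library lay between 40259958 and 121813289 counts, *Slc7a11* had between 203 counts (WT 3) and 3080 counts, and *Atf5* between 1111 and 2236 counts. *Scnn1b*, in whose row transgenic and endogenous transcripts cannot be told apart, was at 72, 54.1, 1.88, 1.15, 4.35 and 2.7 CPM in *Scnn1b*-Tg libraries 1 to 6 and at 11.6, 12.8, 1.48, 0, 0 and 0.297 CPM in WT, higher in *Scnn1b*-Tg within each batch and above 1 CPM in the WT libraries of batches 1 to 3. By staining, the study reported no SCNN1B protein in AMs of either genotype that carried the macrophage receptor MerTK. The source of these RNA counts in sorted AMs was not tested.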

How the data were processed

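The authors aligned reads with HISAT2 (genome build mm10), ignoring strand, and made gene counts from transcript coverage with StringTie on GENCODE M20. These deposited counts are raw whole numbers. The methods describe paired-end libraries (SMART-Seq kit, HiSeq) and single-end libraries (directional NEBNext kit, NextSeq) from different core facilities, without a label for which is which, so a difference between batches 1 to 3 and batch 4 may include one between kits, which was not tested. The rows carry no names. Each of 1999 genes in the copy of the study's gene table was paired with the row whose weighted sum of 12 counts equalled its mean to a relative 1e-12, and the next row differed by at least 2.9e-07. These values served for identity only. For *Slc7a11* and *Atf5* the next row differed by at least 3.7e-04. Sorted by identifier, 1998 of 1998 neighbouring genes also had rising row numbers, and 1977 were found among the gene names given, with 36 symbols that differed between the tables.

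Counts were tested with edgeR 4.0.16 in R 4.3.3 (quasi-likelihood test, TMM factors, filterByExpr, Benjamini-Hochberg adjustment over all rows that passed), with the batch label as a block, since the study's model holds the litter. Standard errors were derived from fold change and F. Ratios and correlations used log2 of TMM-scaled CPM plus 0.5. Genes alike were taken from rows with a mean of at least 1 CPM. The rule named *Slc7a11*, *Atf5*, *Scnn1b*, listed pathway and marker genes with a name and the 5 genes most alike to each. The genes and lists were chosen with earlier results of these data known. Alternatives were DESeq2 1.42.0, limma-voom (limma 3.58.1), other scaling, filters and blocks, parts of the batches and left-out libraries. The batch labels pair the libraries of batches 1, 2 and 3, whose deviations from the genotype mean had correlations of 0.685, 0.692 and 0.611. In batch 4 the equal numbers of the titles gave -0.0508, -0.0056 and -0.0243 and were not taken as pairs. The lowest chi-square per row between libraries of one genotype was 52.5, so none was taken as deposited more than once. Nothing says that libraries of batch 4 come from separate litters, so p-values measure the spread between these libraries. The procedures were tested on simulated data. Promoters come from RefSeq on GRCm38.p6 and gene positions from GENCODE M21. Marker and pathway lists were not tested as sets, because named genes are selected by p-value.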

Additional observations from a re-analysis of the deposited data

Results flagged for a closer look

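In 146 groups of 6 libraries (the genes named here in each genotype), 15 had 1 library well apart from the remaining 5. By chance this happens in about 1 of 20 groups of independent values from 1 normal distribution. These groups mix batches and share libraries, so that rate need not hold for them. *Slc7a11* and *Atf5* were not among them. In batch 1 these were *Gpx3* at 65.7 CPM in *Scnn1b*-Tg 1 and 43.8 CPM in WT 1, *Cd209a* at 35.8 and 2.73 CPM, *Mgl2* at 47.4 and 4.42 CPM, and, in *Scnn1b*-Tg 1, *Chil3* at 59322 CPM, *Flt3* at 2.73 CPM and *Cd8a* at 2.64 CPM. In WT 2 they were *Gpt2* at 23.9 CPM, *Slc1a3* at 6.3 CPM and *Socs3* at 2.01 CPM, in WT 3 *Eprs* at 173 CPM and *Cat* at 66.9 CPM, and in *Scnn1b*-Tg 6 *Hspa1a* at 7.58 CPM. The genotype effect differed between batch 4 and batches 1 to 3 for 2 genes of the dissociation list, *Fosb* (a log2 difference of 1.78, edgeR adjusted p = 0.0959) and *Hspa8* (0.75, edgeR adjusted p = 0.0667).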

How the results depend on the processing

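*Slc7a11* stayed higher and *Atf5* lower in *Scnn1b*-Tg under each alternative run. *Atf5* was called under none. With DESeq2 its adjusted p was 0.001 (*Slc7a11*: 5.9e-05), with a log2 fold change of -0.44, within the fold threshold. The log2 fold change of *Slc7a11* no longer passed without the batch block (0.92), with a replicate block of 6 pairs (1.17), in batches 1 to 3 only (1.67) and in batch 4 only (0.66), and ranged from 0.97 to 1.31 with 1 library left out. The log2 difference between the genes was 1.95 in batches 1 to 3 and 1.15 in batch 4. The residual correlation within batch 4 ranged from -0.99 (without WT 4) to 0.06 (without WT 5, reversed) with 1 library left out and was 0.25 over all 12 libraries. The 60 called rows became 0 without the block, 28 with the replicate block of 6 pairs, 248 with DESeq2, 97 with limma-voom, 0 in batches 1 to 3 (1009 at an unadjusted p under 0.05; 270 without the block) and 22 to 53 with 1 library left out. Called pathway genes numbered 4, and became 0 without the block, 0 with the 6 pairs, 0 in batches 1 to 3, 2 in batch 4 (*Gdf15*, and *Atf3*, which was not among the 4), 6 with DESeq2 (the 4, *Atf3* and *Slc1a3*) and 0 to 3 with 1 library left out, *Atf3* being among them without WT 3 or *Scnn1b*-Tg 3. The causes were not tested.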
